A study of Mus musculus with 2 samples.

Results

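The liver makes most of the proteins that clot blood and most of the soluble proteins of complement, and 43 genes for these factors and for a few related plasma proteins are described here in cultured mouse hepatocytes. They were chosen by gene symbol from the 28692 genes listed in the data. Of the 43, 17 code for factors of coagulation and fibrinolysis, 18 for components and regulators of complement, and 8 for other liver plasma proteins. Primary hepatocytes of C57BL/6 mice were grown in 3D, embedded in growth-factor reduced matrigel, and profiled by droplet single-cell RNA sequencing (10x Genomics Chromium), with 1 library in induction medium and 1 library in expansion medium. Induction medium had the glucocorticoid dexamethasone at 3 uM, and expansion medium had TNFa at 100 ng/mL and CHIR99021, an inhibitor of the kinase GSK3, at 3 uM. The growth factors EGF, at 25 ng/mL, and HGF, at 50 ng/mL, were in both. Both media also shared a William E base with normocin, penicillin/streptomycin, Glutamax, non-essential amino acids, N2 and B27 supplements. The ROCK inhibitor Y27632 (10 uM), A83-01, an inhibitor of the TGF-beta type I receptor (1 uM), nicotinamide (100 mM) and N-acetylcysteine at 1.25 mM were common to both as well. The media differ in several agents at once, so the part of any single agent cannot be told apart. How many mice gave the cells, their age and sex, and the days in culture are not stated in the labels.

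Coagulation is a cascade of serine proteases that ends with thrombin, which cuts fibrinogen into fibrin, and plasmin later dissolves the clot. Complement is a second protease cascade: the classical, lectin and alternative pathways meet at C3, and the terminal components then assemble a pore in the target membrane. Hepatocytes secrete nearly all of these proteins, some steadily and some as acute-phase proteins whose production changes during inflammation under cytokines and glucocorticoids.

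Cells with at least 500 detected genes and at most 25% mitochondrial counts were kept, which left 1245 of 1275 barcodes in induction medium and 1191 of 1208 in expansion medium. A cell held a median of 6765 unique molecular identifiers (UMIs, counts of captured RNA molecules) in induction medium and 23184 in expansion medium, a gap of 3.43-fold. Sequencing depth and RNA content per cell cannot be told apart, so levels are given as counts per 1000000 UMIs of the library (CPM). The 10 hepatocyte markers summed to 67387 CPM in induction medium and 46432 CPM in expansion medium. Most of that gap came from Alb, with 19450 CPM in induction medium and 1737 CPM in expansion medium. Trf was lower in induction medium, at 9661 CPM against 14800 CPM in expansion medium. Markers of Kupffer cells summed to 0.869 CPM in induction medium and 1.77 CPM in expansion medium, with 5 of 8 at 0 in both, and leukocyte markers to 0.652 CPM in induction medium and 0.102 CPM in expansion medium. Of 8 endothelial and 8 stellate cell markers, 4 each were at 0 in both libraries, and their sums of 34.2 and 13.5 CPM in induction medium against 39.8 and 29.6 CPM in expansion medium came almost wholly from Egfl7 and Reln. Cholangiocyte markers summed to 873 CPM in induction medium and 1635 CPM in expansion medium, led by Spp1 with Krt7 at 0, and the part of such cells in the results below was not tested. Platelet markers, mostly Pf4, summed to 3.48 CPM in induction medium and 21.6 CPM in expansion medium, and erythroid markers to 3.80 CPM in induction medium and 1.84 CPM in expansion medium. The libraries shared 4 cell barcodes. With 1 library per medium there is no replicate and no test: the 95% intervals below cover counting error alone.

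As a group, the 43 genes took 2.45% of all UMIs in induction medium and 1.68% in expansion medium. Of them, 38 reached 10 CPM in at least 1 library. Among these 38, 22 were at least 2-fold higher in induction medium, where 9.17% of the 7220 genes with that level were, and 0 were at least 2-fold lower, where 3.17% of all such genes were. The median log2 ratio of induction over expansion was 1.35 for the 38 and 0.21 for the 7220 genes. The median gene with 50 or more UMIs in both libraries was shifted by 0.22. Relative to that gene, 20 of the 38 were 2-fold higher, against 6.65% of all genes, and Cfb alone was 2-fold lower, against 4.67%. Of the 22, 6 met the level in induction medium only (F9, F11, Klkb1, F13b, C8g and Fetub) and so had to be higher there. The other 32 members reached 10 CPM in both libraries, and 16 of them were at least 2-fold higher in induction medium. The 9.17% above covers genes with that level in either library, and no share was counted for genes with it in both. Masp1, Mbl2, C6, C8a and C8b stayed under 10 CPM in both.

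**Figure D1:**
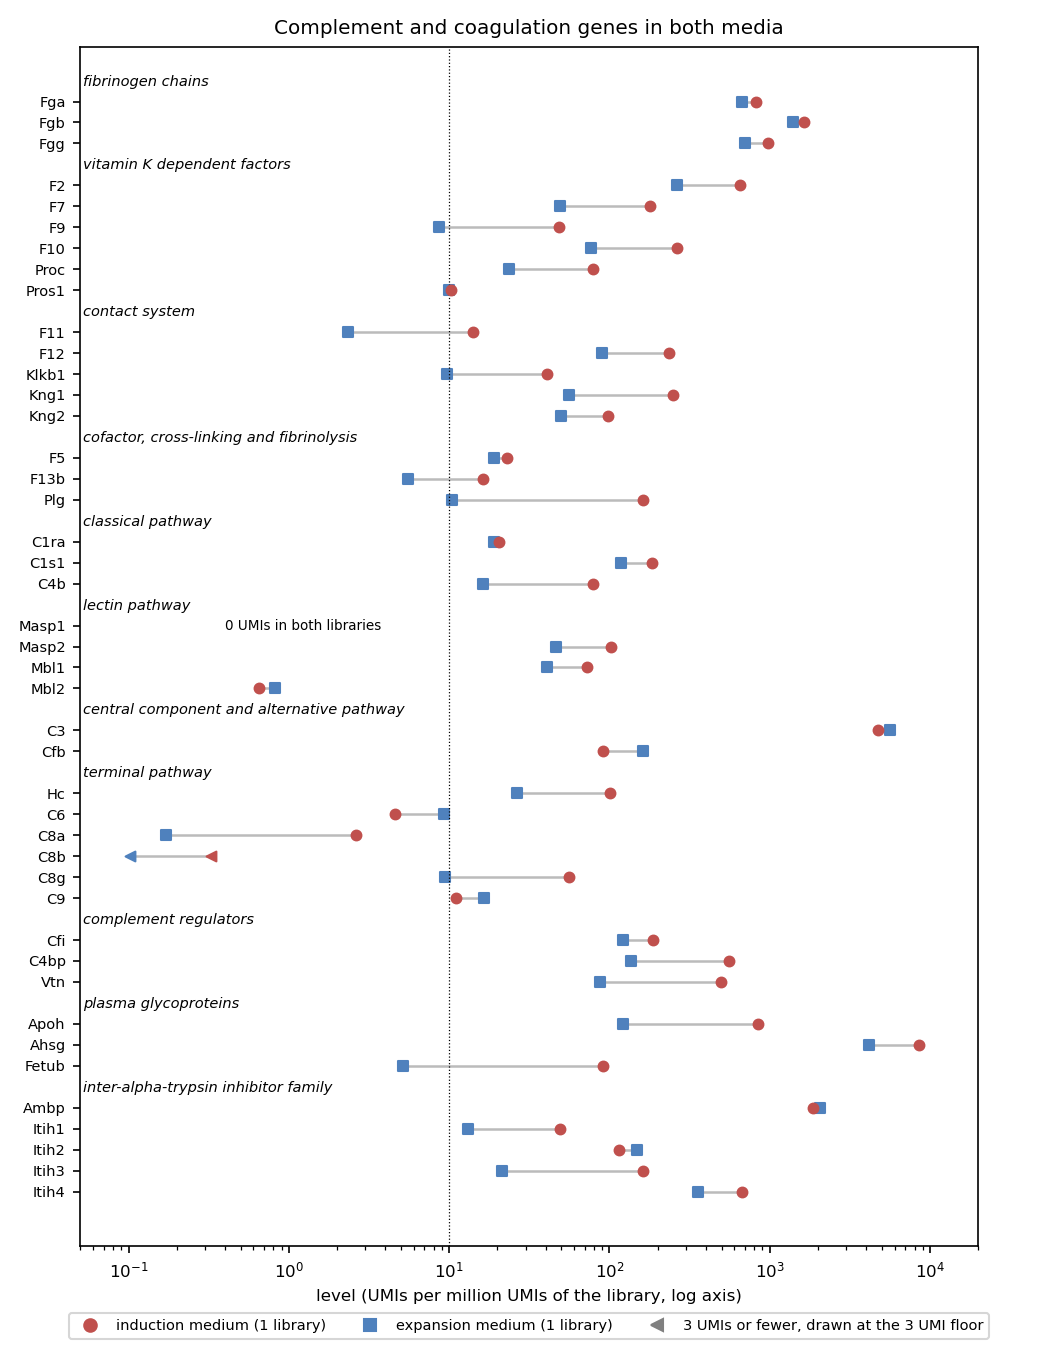
Level of each of the 43 genes in CPM on a log axis, grouped by role, with induction medium as circles and expansion medium as squares; each point is 1 library and the dotted line is 10 CPM. Most circles lie to the right of their squares, while C3, Cfb, C9, C6, Mbl2, Ambp and Itih2 lie the other way round and Masp1 has 0 UMIs in both.

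Fibrinogen, the clot protein, is built from 3 chains coded by Fga, Fgb and Fgg, and each chain differed little between the media. Fgb stood at 1644 CPM in induction medium and 1395 CPM in expansion medium, a log2 ratio of 0.24 (0.21 to 0.26). Fga stood at 825 CPM in induction medium and 667 CPM in expansion medium (0.31, 0.27 to 0.35), and Fgg at 975 CPM in induction medium and 702 CPM in expansion medium (0.47, 0.44 to 0.51). All 3 chains were thus slightly higher in induction medium. Relative to the median gene, the log2 ratios were 0.09 for Fga, 0.02 for Fgb and 0.25 for Fgg. Among the dividing cells defined below, all 3 were lower in induction medium (Fga -0.51, Fgb -0.61, Fgg -0.37). Over all cells the proportions of the chains were close. Fgb made up 47.7% of fibrinogen UMIs in induction medium and 50.5% in expansion medium, and Fgg 28.3% in induction and 25.4% in expansion medium. Fga made up 24.0% in induction and 24.1% in expansion medium. The 3 genes lie side by side at chr3:83007724-83049863 (GRCm38, the assembly of mm10), a span of 42.1 kb that holds no other protein-coding gene, with Fgg and Fga on the plus strand and Fgb on the minus strand. Their promoters are shown because the genes had similar ratios and neighbour each other. Each is 250 bases before to 50 after the start, from RefSeq on GRCm38.p6 (Fga chr3:83025903-83026202 plus, Fgb chr3:83049814-83050113 minus, Fgg chr3:83007474-83007773 plus). Capitals mark matches, on either strand, to GTTAAT (HNF1 hexamer), AGGTCA (HNF4 hexamer), TTGCNNAA (C/EBP), TTCCNGGAA (STAT3) or AGAACA (glucocorticoid receptor hexamer).
Fga: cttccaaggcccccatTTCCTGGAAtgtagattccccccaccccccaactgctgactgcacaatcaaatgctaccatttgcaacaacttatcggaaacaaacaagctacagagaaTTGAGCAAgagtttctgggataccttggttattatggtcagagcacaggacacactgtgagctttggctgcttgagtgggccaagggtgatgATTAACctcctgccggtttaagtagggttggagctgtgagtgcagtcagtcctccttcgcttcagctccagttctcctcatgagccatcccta
Fgb: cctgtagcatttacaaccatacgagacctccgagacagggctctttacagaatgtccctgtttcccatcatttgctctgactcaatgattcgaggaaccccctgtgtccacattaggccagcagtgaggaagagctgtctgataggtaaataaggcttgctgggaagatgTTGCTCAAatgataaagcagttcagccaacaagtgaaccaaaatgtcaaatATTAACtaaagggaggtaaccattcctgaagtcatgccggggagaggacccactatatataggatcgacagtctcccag
Fgg: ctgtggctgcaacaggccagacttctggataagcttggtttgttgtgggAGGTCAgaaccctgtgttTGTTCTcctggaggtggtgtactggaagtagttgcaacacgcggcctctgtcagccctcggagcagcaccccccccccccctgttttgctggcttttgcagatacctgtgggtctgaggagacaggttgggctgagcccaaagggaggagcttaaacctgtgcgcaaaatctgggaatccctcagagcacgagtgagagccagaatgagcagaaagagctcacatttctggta
The windows of Fga and Fgb both held the HNF1 hexamer and the C/EBP letters, and that of Fga alone of the 3 held the STAT3 letters. The window of Fgg held the HNF4 and glucocorticoid receptor hexamers instead. A match is a description of these letters and not a site in use.

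The vitamin K dependent factors, proteases and cofactors that need carboxylated glutamates to bind membranes, were higher in induction medium in 5 of 6 cases. F2, which codes for prothrombin, had 657 CPM in induction medium and 266 CPM in expansion medium, a log2 ratio of 1.31 (1.26 to 1.35). F7, which starts the extrinsic pathway with tissue factor, had 179 CPM in induction medium against 49.2 CPM in expansion medium (1.86, 1.76 to 1.97). F10, where the intrinsic and extrinsic pathways meet, had 263 CPM in induction medium against 76.4 CPM in expansion medium (1.78, 1.70 to 1.87). These proteases of the common and extrinsic pathways were each between 2.47-fold and 3.64-fold higher. F9, the factor lacking in haemophilia B, had 447 UMIs or 48.6 CPM in induction medium and 255 UMIs or 8.68 CPM in expansion medium (2.49, 2.26 to 2.71). Proc, the anticoagulant protein C, had 79.3 CPM in induction medium against 23.6 CPM in expansion medium (1.75, 1.59 to 1.90). Pros1, the cofactor of protein C, was the exception at 10.3 CPM in induction medium and 10.0 CPM in expansion medium, and its interval of -0.30 to 0.38 held 0. The enzymes that serve these factors differed less: Ggcx, the carboxylase, had a log2 ratio of 0.33 and Vkorc1, which recycles vitamin K, of 0.76.

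In the contact system, which starts clotting on charged surfaces and releases bradykinin, 4 of 5 genes were at least 2-fold higher in induction medium. F12, the protease that starts it, stood at 235 CPM in induction medium and 89.5 CPM in expansion medium (log2 ratio 1.40, 1.31 to 1.48). Klkb1, plasma prekallikrein, stood at 40.8 CPM in induction medium against 9.63 CPM in expansion medium (2.08, 1.85 to 2.31), and F11 at 14.0 CPM in induction medium against 2.35 CPM in expansion medium (2.58, 2.15 to 3.02). The F11 value rests on 129 UMIs in induction medium and 69 in expansion medium. Kng1, which codes for kininogen, the source of bradykinin, stood at 248 CPM in induction medium against 56.1 CPM in expansion medium (2.14, 2.05 to 2.23). Its close copy Kng2 stood at 97.6 CPM in induction medium against 49.9 CPM in expansion medium (0.97, 0.84 to 1.09), just under 2-fold, and Ahsg at 2.05-fold was the member just over it. Kng1 thus made up 71.7% of the UMIs of the pair in induction medium and 52.9% in expansion medium; the counting could split reads between such near-identical copies, so this share is uncertain.

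Plg, which codes for plasminogen, the precursor of the fibrin-dissolving protease plasmin, differed more than any other coagulation member. It had 1495 UMIs or 162 CPM in induction medium and 305 UMIs or 10.4 CPM in expansion medium, a ratio of 15.7-fold (log2 3.97, 3.79 to 4.15). F13b, the carrier subunit of the fibrin cross-linking enzyme, had 16.2 CPM in induction medium against 5.51 CPM in expansion medium (1.55, 1.22 to 1.88). F5, the cofactor of factor X, had 23.0 CPM in induction medium against 19.0 CPM in expansion medium (0.28, 0.05 to 0.51), close to the median gene. Summed, the 17 coagulation genes reached 5519 CPM in induction medium and 3440 CPM in expansion medium (log2 ratio 0.68, 0.67 to 0.70). Fibrinogen made up most of both sums: the other 14 genes reached 2074 CPM in induction medium and 676 CPM in expansion medium (1.62, 1.59 to 1.65).

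A list of 25 further coagulation and fibrinolysis genes had 14 at 10 CPM or more, of which 4 were at least 2-fold higher in induction medium and 0 at least 2-fold lower, with a median log2 ratio of 0.56. Hrg, a plasma glycoprotein that binds plasminogen and heparin, had 354 UMIs or 38.5 CPM in induction medium and 10 UMIs or 0.340 CPM in expansion medium (6.82, 5.93 to 7.89). Serpinc1, which codes for antithrombin, had 272 CPM in induction medium against 3.95 CPM in expansion medium (6.11). Proz, the cofactor of the protein Z dependent protease inhibitor, had 90.6 CPM in induction medium against 30.9 CPM in expansion medium (1.55), and Serpinf2, the plasmin inhibitor, had 479 CPM in induction medium against 211 CPM in expansion medium (1.18). Inhibitors of thrombin and plasmin were therefore among the genes that differed in the same direction as the proteases they inhibit. The heparin cofactor Serpind1 had 327 CPM in induction medium against 246 CPM in expansion medium (0.41). F13a1, Tfpi and Plau, made mainly by other cells, had 0 UMIs in both libraries.

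Complement differed little as a sum but more gene by gene, and C3 made up 70.5% of complement UMIs in induction medium and 87.4% in expansion medium. C3, the central component, was lower, at 4711 CPM in induction medium against 5647 CPM in expansion medium (log2 ratio -0.26, -0.28 to -0.25), with opposite signs in cells with Xist (0.43) and cells with Y-linked transcripts (-0.56). The sum of the 18 complement genes was 6680 CPM in induction medium and 6457 CPM in expansion medium (0.05, 0.04 to 0.06), and its sign turned to -0.17 relative to the median gene. Without C3, the other 17 genes summed to 1968 CPM in induction medium and 811 CPM in expansion medium (1.28, 1.25 to 1.31). Of 13 complement genes at 10 CPM or more, 6 were at least 2-fold higher in induction medium, with a median of 0.83. Cfb, the protease subunit of the alternative pathway convertase, was the member with the lowest log2 ratio, at 91.0 CPM in induction medium and 161 CPM in expansion medium (-0.82, -0.93 to -0.72). Both genes of the alternative pathway convertase were thus lower in induction medium. Cfb overlaps another annotated gene on the same strand, which leaves its count uncertain.

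Of the classical pathway, C4b, which pairs with C2 in the C3 convertase, stood at 78.5 CPM in induction medium and 16.2 CPM in expansion medium (log2 ratio 2.27, 2.104 to 2.443). The proteases of the C1 complex differed less: C1s1 stood at 184 CPM in induction medium against 118 CPM in expansion medium (0.64, 0.56 to 0.73), and C1ra at 20.4 CPM in induction medium against 19.1 CPM in expansion medium (0.10), with an interval of -0.15 to 0.34. C4b, C1ra and C1s1 have close copies in the mouse genome, so their counts are uncertain. In the lectin pathway, Masp2, the protease that cuts C4 and C2, stood at 103 CPM in induction medium and 46.6 CPM in expansion medium (1.14, 1.02 to 1.26). Mbl1, a mannose-binding lectin, stood at 72.5 CPM in induction medium against 40.7 CPM in expansion medium (0.83, 0.69 to 0.97). Mbl2, the other mannose-binding lectin, had 6 UMIs in induction medium and 24 in expansion medium, and Masp1 had 0 in both, which allows up to 0.326 CPM in induction medium and 0.102 CPM in expansion medium.

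The terminal components, which build the membrane pore, did not differ alike. Hc, which codes for C5, had 101 CPM in induction medium and 26.5 CPM in expansion medium (log2 ratio 1.94, 1.80 to 2.08). C8g, the small chain of C8, had 56.1 CPM in induction medium against 9.39 CPM in expansion medium (2.58, 2.36 to 2.79). C9, which forms the ring of the pore, was lower in induction medium at 101 UMIs or 10.98 CPM, against 487 UMIs or 16.6 CPM in expansion medium (-0.59, -0.92 to -0.28). C6 ran the same way with 42 UMIs or 4.56 CPM in induction medium and 272 UMIs or 9.25 CPM in expansion medium (-1.02, -1.52 to -0.55), just under the level at which genes were counted, but its ratio was 0.84 among Xist-bearing cells and -2.21 among Y-linked ones. The other chains of C8 were barely captured. C8a had 24 UMIs in induction medium and 5 in expansion medium (3.94, 2.52 to 5.68), and C8b had 3 UMIs in induction medium and 0 in expansion medium. The gamma chain alone made up 95.03% of C8 UMIs in induction medium and 98.2% in expansion medium.

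Proteins that restrain complement were higher in induction medium. C4bp, the C4b-binding protein, stood at 558 CPM in induction medium and 137 CPM in expansion medium (log2 ratio 2.03, 1.97 to 2.09). Vtn, vitronectin, which blocks pore assembly, stood at 496 CPM in induction medium against 87.2 CPM in expansion medium (2.51, 2.44 to 2.58). Cfi, the protease that cuts C3b and C4b, stood at 188 CPM in induction medium against 122 CPM in expansion medium (0.62, 0.54 to 0.70), within 2-fold. A list of 25 further complement genes had 9 at 10 CPM or more. In that list Cfhr2, related to factor H, was at least 2-fold higher with 526 CPM in induction medium against 176 CPM in expansion medium (1.58). Clu, clusterin, was at least 2-fold lower with 2471 CPM in induction medium and 7202 CPM in expansion medium (-1.54). The median of the 9 was 0.21, the same as that of all genes. Among the rest, Cd59a (0.78) and C2 (0.47) had the next highest log2 ratios, and Cd55 (-0.70) and Cr1l (-0.13) the next lowest. The 11 genes with 0 UMIs in both included C1qa, C1qb and C1qc, which macrophages make, C7 and Cfd.

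The 8 other plasma proteins held both the member with the most UMIs in induction medium and the member with the highest ratio among those counted. Ahsg, which codes for fetuin-A, an inhibitor of mineral deposition, had 8473 CPM in induction medium and 4141 CPM in expansion medium (log2 ratio 1.03, 1.02 to 1.05). Relative to the median gene that ratio was 0.81, under 2-fold. Fetub, fetuin-B, an inhibitor of the egg-coat protease ovastacin, had 838 UMIs or 91.1 CPM in induction medium and 152 UMIs or 5.17 CPM in expansion medium, a ratio of 17.6-fold (4.14, 3.89 to 4.40). Apoh, the phospholipid-binding beta-2-glycoprotein I, had 849 CPM in induction medium against 121 CPM in expansion medium (2.81, 2.75 to 2.86). Fetuin-A and fetuin-B are neighbours in the genome, and their promoters are shown because their ratios lie so far apart. Capitals have the same meaning as above (Ahsg chr16:22891765-22892064 plus; Fetub has an upstream start, chr16:22918132-22918431 plus, and a downstream start, chr16:22919972-22920271 plus).
Ahsg: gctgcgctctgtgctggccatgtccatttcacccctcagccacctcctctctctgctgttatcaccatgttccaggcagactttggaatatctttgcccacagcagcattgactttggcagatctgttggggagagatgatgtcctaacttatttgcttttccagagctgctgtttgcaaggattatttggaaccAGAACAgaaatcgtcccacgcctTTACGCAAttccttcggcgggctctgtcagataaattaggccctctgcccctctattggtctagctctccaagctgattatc
Fetub, upstream start: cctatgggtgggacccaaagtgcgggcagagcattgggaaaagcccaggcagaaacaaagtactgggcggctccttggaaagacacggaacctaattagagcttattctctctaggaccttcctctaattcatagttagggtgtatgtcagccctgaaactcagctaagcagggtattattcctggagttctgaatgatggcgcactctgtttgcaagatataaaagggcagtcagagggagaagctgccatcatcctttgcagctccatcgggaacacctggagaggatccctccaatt
Fetub, downstream start: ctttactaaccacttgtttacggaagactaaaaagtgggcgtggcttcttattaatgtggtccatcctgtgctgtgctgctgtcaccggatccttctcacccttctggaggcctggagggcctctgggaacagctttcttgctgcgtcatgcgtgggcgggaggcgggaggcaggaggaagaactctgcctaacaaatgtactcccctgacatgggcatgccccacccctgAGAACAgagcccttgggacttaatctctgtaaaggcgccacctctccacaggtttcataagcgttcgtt
The Ahsg window held the C/EBP letters and the glucocorticoid receptor hexamer. The upstream Fetub window held none of the searched letters, and the downstream window held the glucocorticoid receptor hexamer.

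The inter-alpha-trypsin inhibitor family joins the light chain bikunin, cut from the product of Ambp, to heavy chains that stabilise hyaluronan. Ambp had 1852 CPM in induction medium and 2061 CPM in expansion medium (log2 ratio -0.15, -0.18 to -0.13), and in cells with Y-linked transcripts its ratio was 0.01. The heavy chains ranged widely. Itih3 stood at 162 CPM in induction medium and 21.4 CPM in expansion medium (2.92, 2.78 to 3.06), and Itih1 at 49.0 CPM in induction medium against 13.03 CPM in expansion medium (1.91, 1.71 to 2.11). Itih4, a related acute-phase protein, stood at 669 CPM in induction medium against 357 CPM in expansion medium (0.91, 0.86 to 0.95). Itih2 was lower in induction medium, at 115 CPM in induction medium against 149 CPM in expansion medium (-0.38, -0.48 to -0.28), although its ratio was 0.31 in cells with Xist. Itih2 therefore made up 11.5% of heavy chain UMIs in induction medium and 27.6% in expansion medium, and Itih3 16.3% in induction medium and 3.97% in expansion medium. The summed family hardly differed, at 2846 CPM in induction medium and 2601 CPM in expansion medium (0.13, 0.11 to 0.15).

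Several members sit next to each other on the chromosome, and neighbours were alike in some places and unlike in others. At chr16:22891277-23082078, a span of 191 kb with 5 protein-coding genes, the log2 ratios in order along the chromosome were 1.03 for Ahsg, 4.14 for Fetub, 6.82 for Hrg, 0.97 for Kng2 and 2.14 for Kng1. On chromosome 8, F7, F10 and Proz lie within 50.0 kb (chr8:13026034-13076026) with log2 ratios of 1.86, 1.78 and 1.55. Elsewhere on chromosome 8, at chr8:45241174-45308466, F11 and Klkb1 had ratios of 2.58 and 2.08. The Klkb1 entry of the files overlaps Cyp4v3 on the same strand, so its count is uncertain. At chr14:30886476-30943289 Itih4, Itih3 and Itih1 had 0.91, 2.92 and 1.91. At chr17:34728380-34898265, within the major histocompatibility complex, C4b had 2.27 and Cfb -0.82, with C2 at 0.47. Plg, Masp2, C8g, Apoh, Fgg, F5, C1s1, Hc, C8a and Masp1 overlap a gene on the opposite strand, and reads of such partners can be told apart only where the counting used strand, which the labels do not say.

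**Figure D2:**
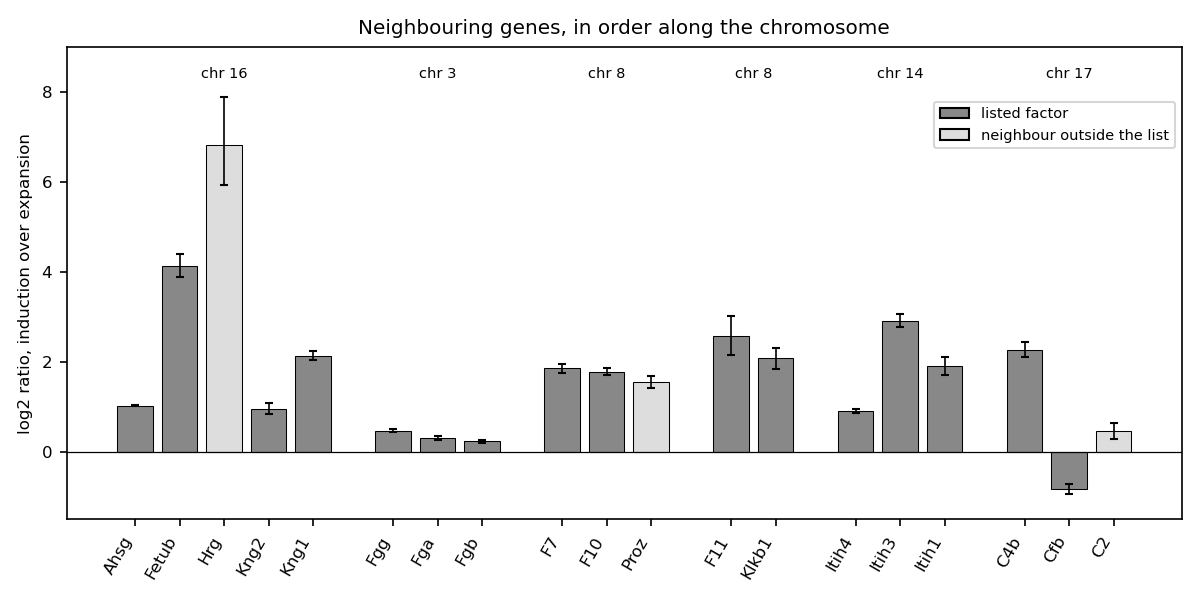
Log2 ratio of induction over expansion for neighbouring genes at 6 loci, in order along each chromosome, with 95% counting intervals; dark bars are members and pale bars are neighbours outside the list. The fibrinogen genes lie between 0.24 and 0.47 and F7, F10 and Proz between 1.55 and 1.86, while the chromosome 16 genes range from 0.97 to 6.82.

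Promoter windows of 300 bases were found in RefSeq for 36 of the 43 genes. Of these 36, 11 (30.6%) held GTTAAT, against 7.10% of 32851 promoters in the table, and 14 (38.9%) held AGGTCA, against 16.3%. TTGCNNAA was in 12 (33.3%), against 10.8%, and AGAACA in 17 (47.2%), against 19.0%. TTCCNGGAA was in Fga and Pros1 (5.56%), against 1.15%. The longer letters CAAAGTCCA (HNF4), TTGCGCAA (C/EBP) and GGGACTTTC (NF-kB) were in 0 of 36, against 0.475%, 0.183% and 0.353% of all promoters. Both strands were searched, and TTGCGCAA is a special case of TTGCNNAA. The genes with AGGTCA lay on both sides of a log2 ratio of 0, among them F9 (2.49), F7 (1.86), Ambp (-0.15) and C6 (-1.02). Several genes have more than 1 window, so these shares count genes for the members and windows for the table.

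Of the regulators of liver genes, 18 of 23 reached 10 CPM, and 4 were at least 2-fold higher in induction medium with a median log2 ratio of 0.35. Hnf4a, a nuclear receptor that many hepatocyte genes require, had 250 CPM in induction medium and 93.4 CPM in expansion medium (1.42). Rxra, the partner of many nuclear receptors, had 100.2 CPM in induction medium against 20.4 CPM in expansion medium (2.30), and Nr1h4, the bile acid receptor, had 43.5 CPM in induction medium against 18.1 CPM in expansion medium (1.26). Jun had 288 CPM in induction medium against 108 CPM in expansion medium (1.41). Cebpa, at 65.2 CPM in induction medium against 32.8 CPM in expansion medium (0.99), was just under 2-fold. Stat3, the acute-phase factor downstream of IL-6, had 74.3 CPM in induction medium against 71.3 CPM in expansion medium (0.06), and Nr3c1, the glucocorticoid receptor, 48.3 CPM in induction medium against 36.8 CPM in expansion medium (0.39). Nfkb1, downstream of TNF receptors, was lower in induction medium at 41.5 CPM in induction medium against 59.7 CPM in expansion medium (-0.52). The other NF-kB and TNF receptor genes of the list differed less, with -0.16 for Nfkbia, 0.10 (-0.06 to 0.26) for Rela and 0.32 for Tnfrsf1a.

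The members were also counted cell by cell. A cell held UMIs of a median of 21 of the 43 genes in induction medium and 22 in expansion medium, but cells in expansion medium were deeper. After each cell was thinned to 2000 UMIs, which left out 14 shallower cells in induction medium and 0 in expansion medium, the medians were 13 genes in induction medium and 8 in expansion medium, with 80% of cells between 7 and 18 in induction medium and between 5 and 13 in expansion medium. Plg was seen in 27.4% of 1231 thinned cells in induction medium (exact interval 24.9 to 30.0) and 1.93% of 1191 in expansion medium (1.23 to 2.88). The unthinned shares were 56.3% in induction medium and 16.5% in expansion medium. For Apoh the thinned shares were 67.8% in induction medium and 20.2% in expansion medium, and for F2 65.8% in induction medium and 36.1% in expansion medium. Vtn was seen in 54.1% of thinned cells in induction medium and 15.4% in expansion medium, and Fetub in 14.8% in induction medium and 0.924% in expansion medium. Unthinned, the shares were 87.2% in induction medium and 73.9% in expansion medium for Apoh, 88.6% in induction medium and 91.4% in expansion medium for F2, and 79.3% in induction medium and 63.3% in expansion medium for Vtn. Fetub was seen in 37.6% of unthinned cells in induction medium and 11.2% in expansion medium. C3 was seen in nearly every thinned cell, at 96.4% in induction medium and 98.2% in expansion medium, and so was Ahsg, at 97.8% in induction medium and 96.3% in expansion medium; unthinned, C3 was in 99.0% and Ahsg in 99.1% of cells in induction medium, and both were in all 1191 cells in expansion medium. No group of cells in these libraries should lack liver genes, so the share that free RNA would give could not be set.

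**Figure D3:**
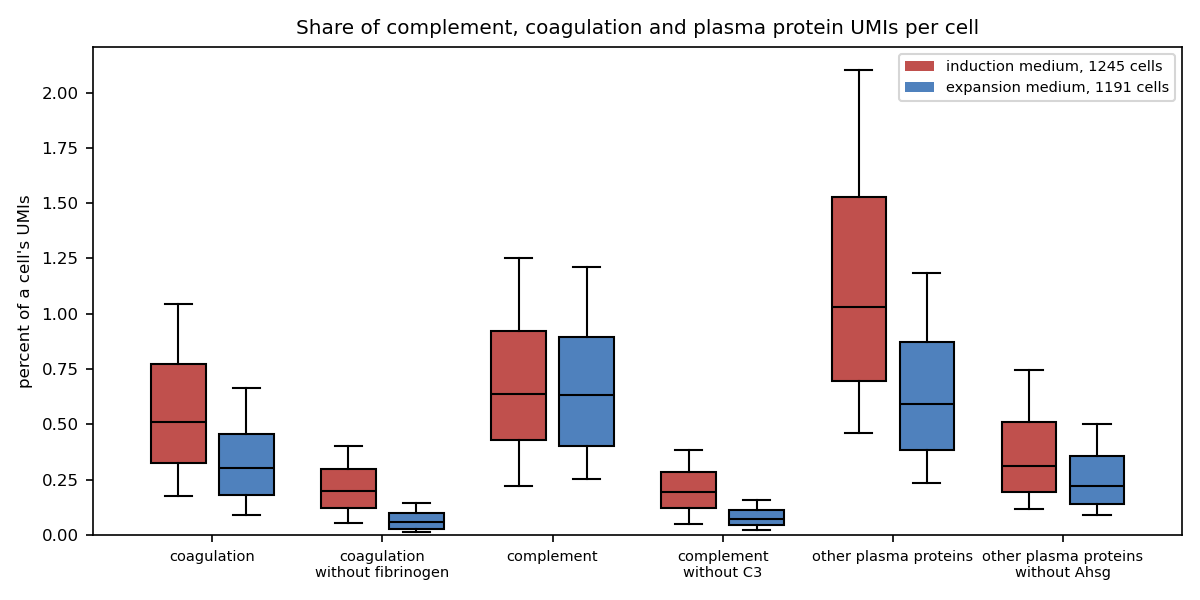
Percent of each cell's UMIs from the 3 sets of members, with and without the most abundant genes, in 1245 cells of induction medium (left box of each pair) and 1191 cells of expansion medium; boxes show the quartiles and median, and whiskers the 10th to 90th percentile. Complement as a whole had medians of 0.639% in induction medium and 0.634% in expansion medium, while complement without C3 had 0.193% in induction medium and 0.0746% in expansion medium.

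Per cell, coagulation genes took a median of 0.509% of UMIs in induction medium and 0.302% in expansion medium, and without fibrinogen 0.197% in induction medium and 0.0573% in expansion medium. The 10th percentile of the share without fibrinogen was 0.0544% in induction medium, close to the median in expansion medium. Variation beyond counting was large for the abundant members. In thinned cells the variance of Ahsg was 8.02 times its mean in induction medium and 5.78 times in expansion medium, for C3 6.15 times in induction medium and 4.999 times in expansion medium, and for F2 1.41 times in induction medium and 1.32 times in expansion medium, where counting alone gives a ratio of 1. Across thinned cells Fgb and Fgg had the highest Pearson correlation of 15 pairs of the 6 members averaging at least 1 UMI, at 0.57 over 1231 cells in induction medium and 0.50 over 1191 cells in expansion medium. The correlation of Ahsg with Ambp was 0.42 in induction medium and 0.34 in expansion medium, that of Fga with Fgb 0.36 in induction medium and 0.41 in expansion medium, and that of Fga with C3 0.25 in induction medium and 0.36 in expansion medium. The cells behind each value come from 1 library and were thinned to the same depth.

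Cells were clustered within each library without the 43 genes among the variable genes, which gave 7 clusters in induction medium and 8 in expansion medium. In both media 1 cluster stood low for almost all members. In induction medium this was a cluster of 90 cells led by Sprr1a, Serpine2 and S100a6, where members took 0.858% of UMIs and 36 of 37 members with 100 or more UMIs had their lowest level. In expansion medium it was a cluster of 117 cells led by S100a6, Serpine2 and Sprr1a, with 0.788% of UMIs and the lowest level of 32 of 38 members. In these clusters hepatocyte markers took 2.42% of UMIs in induction medium and 1.83% in expansion medium, the lowest share in each library. The cells were not shallow, with medians of 10364 UMIs in induction medium and 29210 in expansion medium. At the other end stood clusters led by the acute-phase genes Saa2 and Orm1 or Orm2. The one in induction medium (296 cells) had 3.59% of UMIs from members and the highest level of 22 of 37. The one in expansion medium (157 cells) had 2.41% and the highest level of 27 of 38. How many of all genes had their lowest or highest level in these clusters was not counted. Whether these counts are particular to the members was therefore not tested.

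**Figure D4:**
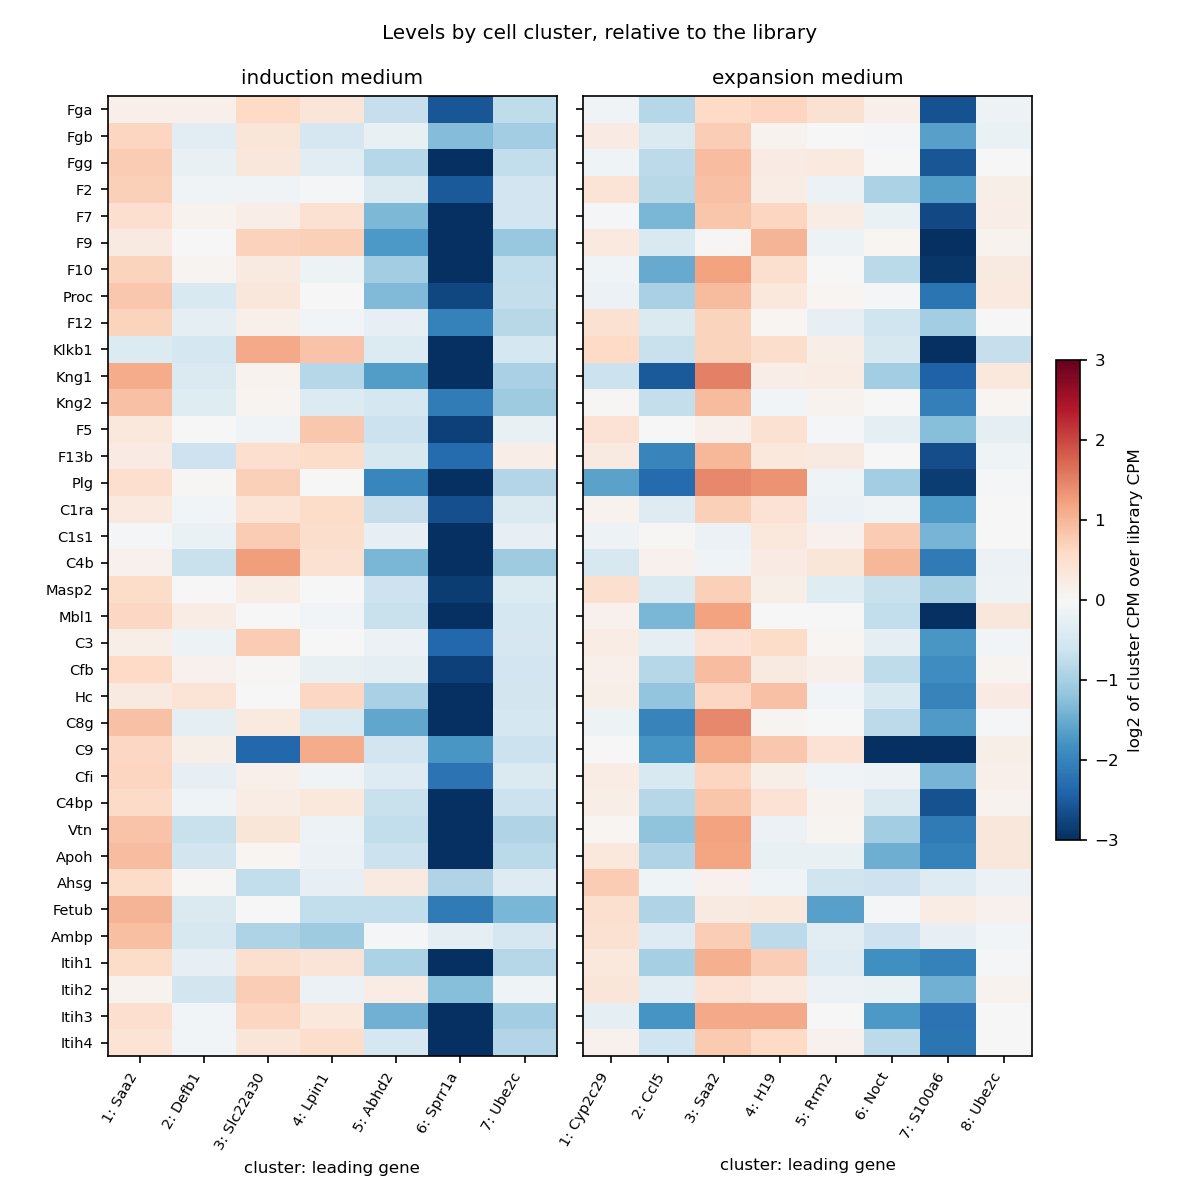
Log2 of each member's CPM in a cluster over its CPM in the whole library, induction medium on the left and expansion medium on the right, for members with 100 or more UMIs in each library; clusters are named by number and leading gene, and counts under 3 UMIs are set to 3. The cluster led by Sprr1a in induction medium is blue for every member shown, palest for Ambp and Ahsg, and the one led by S100a6 in expansion medium for every member shown but Fetub, with 6.06 CPM against 5.17 CPM in the whole library. Those led by Saa2 are red for most.

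The range between clusters was wide. For 27 members in induction medium whose lowest cluster held more than 3 UMIs, the highest cluster was a median of 11.5-fold over the lowest, from 2.72-fold for Ahsg to 69.5-fold for Kng1. In expansion medium the median was 7.98-fold over 35 members, with a range of 1.55-fold to 24.8-fold. Kng1 stood at 532 CPM in the Saa2 cluster of induction medium and at 7.66 CPM in its Sprr1a cluster, and Fgg at 1663 CPM in the first and 83.1 CPM in the second. Ahsg still reached 4568 CPM in that Sprr1a cluster. C3 was above its library level in both Saa2 clusters but not highest there. In the Saa2 cluster C3 had 5342 CPM in induction medium (library 4711 CPM) and 7605 CPM in expansion medium (library 5647 CPM). In induction medium C3 was highest, at 7939 CPM, in a cluster of 224 cells led by Slc22a30, Slco1a4 and Tat. Of these cells 97.8% held Xist and no Y-linked transcript, and C4b was highest there as well, at 188 CPM. The highest level of C3 in expansion medium was 8274 CPM, in a cluster of 147 cells led by H19. There 7.48% of cells held Xist and no Y-linked transcript. In expansion medium C4b was highest, at 32.2 CPM, in a cluster led by Noct of which 84.3% of cells held Xist and no Y-linked transcript.

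Both libraries held cells with Xist, which is transcribed from the inactive X chromosome of females, and cells with Y-linked transcripts. In induction medium 412 cells had Xist alone, 503 had Y-linked transcripts alone, 22 both and 308 neither. In expansion medium 325 cells had Xist alone, 505 Y-linked transcripts alone, 275 both and 86 neither. Among cells with at least 2 Y-linked UMIs, 2.21% of 272 in induction medium and 32.1% of 599 in expansion medium also held Xist, so the classes are less clean in expansion medium, and the part of free RNA or shared droplets in this was not tested. In expansion medium 31 of 38 members were lower in Xist cells than in Y-linked cells beyond counting error and 2 were higher, with a median log2 ratio of -0.65, against 0.12 for all genes. In induction medium 16 were lower and 9 higher, with a median of -0.12 against 0.20. Counts beyond counting error were not made for all genes. At least 2-fold lower in Xist cells of expansion medium were 6 of the 38 members and 96 of 7220 genes, and 0 and 49 were 2-fold higher. In induction medium 1 of the 38 members and 77 of the genes were 2-fold lower, and 1 and 317 were 2-fold higher. The ratio of induction over expansion was larger in Xist cells than in Y-linked cells for 35 of the 38, the exceptions being Ambp, Ahsg and C1s1. The same count was not made for all genes, so whether it is particular to the members was not tested. Cells are not replicates, and the animals behind each class are not given, so the class and the animals cannot be told apart.

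**Figure D5:**
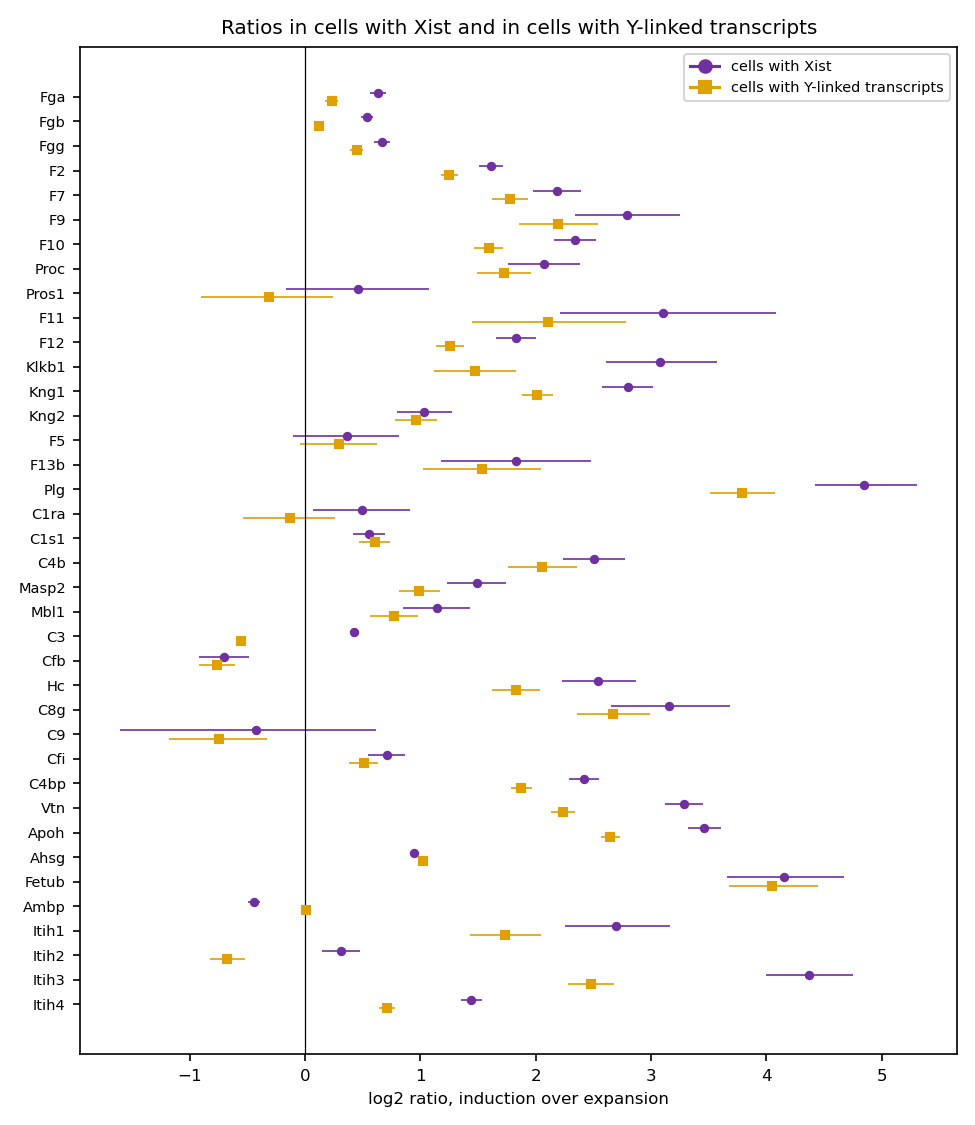
Log2 ratio of induction over expansion for the 38 members with 10 CPM or more, in cells with Xist (circles) and cells with Y-linked transcripts (squares), with 95% counting intervals. Most circles lie to the right of their squares, and for C3 and Itih2 the 2 intervals lie wholly on opposite sides of 0. For Pros1, C1ra and Ambp the 2 points also differ in sign, but at least 1 interval holds 0.

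Among single members, C9 was lower in Xist cells in both media. It had 3.26 CPM in Xist cells and 14.4 CPM in Y-linked cells of induction medium (-2.14, -3.28 to -1.16), and 4.38 CPM in Xist cells and 24.1 CPM in Y-linked cells of expansion medium (-2.46, -3.002 to -1.957). C4b ran the other way, with 118 CPM in Xist cells and 57.0 CPM in Y-linked cells of induction medium (1.05) and 20.8 CPM in Xist cells and 13.7 CPM in Y-linked cells of expansion medium (0.60). C1s1 was likewise higher in Xist cells of both media, by 0.40 on the log2 scale in induction medium and 0.45 in expansion medium. Of the 24 C8a UMIs of induction medium, 23 were in Xist cells and 1 in Y-linked cells. Itih3 differed most between the classes in its ratio of induction over expansion, at 4.37 in Xist cells and 2.48 in Y-linked cells.

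Dividing cells, taken as those with at least 2 of 20 G2/M genes after thinning to 2000 UMIs, numbered 82 in induction medium and 145 in expansion medium. Before thinning they were deeper than the other cells, with medians of 9998.5 UMIs against 6632 in induction medium and 25260 UMIs against 22842 in expansion medium. The 14 cells of induction medium under 2000 UMIs could not pass this rule and count among the others. The numbers of the 2 media were not compared, and the part of depth in the values below was not tested. In induction medium coagulation genes summed to 2863 CPM in dividing cells and 5791 CPM in the others (log2 ratio -1.02, -1.08 to -0.96), and complement genes to 4273 CPM in dividing cells and 6927 CPM in the others (-0.70). In expansion medium coagulation genes summed to 3033 CPM in dividing cells and 3501 CPM in the others (-0.21), and complement genes to 5911 CPM in dividing cells and 6539 CPM in the others (-0.15). Of the 38 members, 32 in induction medium and 13 in expansion medium were lower in dividing cells beyond counting error. Such counts were not made for all genes. The median log2 ratio of the members was -0.86 in induction medium, against 0.10 for 7220 genes, and -0.14 in expansion medium, against 0.12. At least 2-fold lower in dividing cells were 12 of the 38 members and 303 of the 7220 genes in induction medium, and 0 of the members and 38 of the genes in expansion medium. C4b had the lowest ratio in induction medium, at 26.8 CPM in dividing cells and 83.8 CPM in the others (-1.64), and F13b alone had a positive one (0.33), from 17 UMIs in dividing cells. Whether the media differ in this was not tested.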

How the data were processed

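The deposited files hold unnormalized UMI counts per gene and cell barcode for each library, with gene and barcode names. Per the submitters' processing notes, the authors counted with Cell Ranger 2.1.1 against mm10. Which annotation release and cell-calling settings they used is not given in the sources used here. Groups were taken from the medium in the labels. Cells were filtered as stated, counts were summed per library and divided by the library total (CPM), and ratios carry exact conditional binomial intervals of the 2 counts, CPM exact Poisson intervals and shares exact Clopper-Pearson intervals (95%), which cover counting error only. Counts of 3 UMIs or fewer are at the floor and give no fold. A gene was called at 2-fold with 10 CPM or more in the higher library. The intervals were checked on simulated counts. Clusters came from scanpy 1.11.5 (counts scaled to 10000 per cell, 2000 variable genes, 20 components, 15 neighbours, Leiden resolution 0.6). Scrublet marked 2 cells in induction medium and 4 in expansion medium as doublets, which were kept. Per-cell thinning used a fixed seed. Other tools were pandas 2.3.3, scipy 1.17.1, numpy 2.4.6 and Python 3.11.15. Each member was named; of other pathway genes, the most abundant in each library and the 3 with the largest ratios in each direction, besides regulators. A further gene named with 0 UMIs, or as a vitamin K enzyme, was chosen after its value was seen. The members, lists and comparisons were chosen with earlier results of these data known. Gene positions came from a GENCODE annotation of GRCm38 and promoters from RefSeq (GRCm38.p6). The promoter of Proc and those without a table entry are not printed.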

Additional observations from a re-analysis of the deposited data

Results flagged for a closer look

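For C3, C6 and Itih2 the log2 ratio of induction over expansion had opposite signs in the 2 classes of cells set by Xist and Y-linked transcripts, and both counting intervals excluded 0. The signs also differed for Pros1, C1ra, Ambp and C8a, where at least 1 of the 2 intervals held 0. Mbl2 had 2.01 among Xist cells, with an interval that held 0. Among Y-linked cells Mbl2 had 0 UMIs in induction medium and 14 in expansion medium, which gives no ratio but runs the other way. C3, the central complement component, had a ratio of 0.43 among Xist cells and -0.56 among Y-linked cells. C6, a terminal component with few UMIs, had 0.84 among Xist cells and -2.21 among Y-linked cells. Itih2, an inter-alpha-trypsin inhibitor heavy chain, had 0.31 among Xist cells and -0.68 among Y-linked cells. The differences between the classes were not tested, since each class comes from 1 library per medium.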

How the results depend on the processing

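No paired analysis was possible because each medium has 1 library. Over 13 alternatives, the count of members at least 2-fold higher in induction medium ranged from 17, with a 50 CPM minimum, to 24, in Xist cells. The count at least 2-fold lower was 0, and became 2 (C6 and Cfb) in CPM without mitochondrial and ribosomal protein genes and 1 on scaling to the median gene (Cfb), with every cell given equal weight, a 5 CPM minimum, no minimum or Y-linked cells alone (C6). The median log2 ratio moved to 1.08 without mitochondrial and ribosomal genes, 1.13 relative to the median gene, 1.83 in Xist cells and 1.25 in Y-linked cells. The coagulation sum moved to 0.46 without mitochondrial and ribosomal genes, 0.46 relative to the median gene, 0.72 with equal weights, 0.72 thinned, 0.95 in Xist cells, 0.61 in Y-linked cells and 0.73 without dividing cells. The complement sum, near 0 at 0.05, turned negative without mitochondrial and ribosomal genes (-0.18), relative to the median gene (-0.17) and in Y-linked cells (-0.21). It was 0.0265 with at least 1000 genes and at most 10% mitochondrial UMIs, 0.024 thinned, 0.64 in Xist cells and 0.083 without dividing cells. Ahsg and Masp2 were under 2-fold in several of these scalings. The causes were not tested. Of 409 ratios of single members under these alternatives, leaving out those that change only the CPM minimum, 262 stayed within their counting interval and 147 moved. With 1 library per medium, none of these settings shows how far libraries of the same medium differ. At this depth a member with 0 UMIs may still be present below 0.326 CPM in induction medium or 0.102 CPM in expansion medium.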
